A study of Mus musculus with 6 samples.

Results

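Tfrc, the transferrin receptor gene, stood about 1.45-fold higher in the brains of offspring of dams on a maternal high-fat diet (MHFD) than in those of dams on a maternal normal diet (MND), with almost no spread between the animals of a group. It is 1 of the 32623 rows of the count table, the row with the rat Ensembl identifier ENSRNOG00000001766, and was chosen by its CPM in the MHFD and MND libraries, which lay apart. The values of that comparison are therefore given as a description, without a test. The identifier was taken as Tfrc as it was given; the reference tables used here are of the mouse and matched 0 of the identifiers, so the name was not checked against a rat annotation.

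The transferrin receptor is a membrane protein that binds iron-loaded transferrin from the blood or the extracellular fluid and carries it into the cell, where the acid of the endosome frees the iron and the receptor returns to the surface. Its mRNA is known to be stabilised when a cell is short of iron, through binding of iron regulatory proteins to its untranslated region, and to be broken down when iron is plentiful. In the brain the receptor is known from the endothelium of the blood-brain barrier, through which iron enters, and from neurons. The weeks before weaning are a time of high iron uptake, when myelin is formed. Outside the brain, immature red blood cells carry it in large amounts.

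Brain RNA was sequenced from 3 MHFD and 3 MND offspring on day 21, the last day of lactation, with a library for each animal. Dams of the MHFD group received the high-fat diet before mating, in pregnancy and while nursing. Dams of the MND group received normal feed throughout. The study's methods word the time of mating differently for each group, so it may differ between them. No other treatment of the sequenced offspring is named. The sample labels name C57BL/6 mice, the study's methods name Sprague-Dawley rats, and all gene identifiers are of the rat. The sex of the sequenced animals, their litters and the part of the brain taken are not given in the sources used here, so offspring within a group may share a dam. Total counts lay between 43679373 and 61385917 per library, and the 10 most abundant genes took 13.4 to 18.3% of them. Without rat gene symbols, the markers of brain and of other cell types, blood and endothelium included, were not analysed here.

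Counts of Tfrc were 10930, 8202 and 7923 for replicates 1, 2 and 3 of the MHFD group, and 7450, 6325 and 6399 for those of the MND group. Scaled to CPM, the count relative to the library size, with TMM normalization, which corrects the library sizes for differences in composition, the level was 179, 173 and 181 CPM in the MHFD libraries in the same order. In the MND libraries it was 123, 121 and 124 CPM. The lowest MHFD library thus stood above the highest MND library, and the groups did not overlap. Of the 16776 genes tested, 7.12% had all 3 MHFD libraries above all 3 MND libraries, and 13.9% had no overlap in either direction. At an unadjusted p under 0.05 in edgeR's quasi-likelihood test, 8.68% of them, or 1456 genes, were called in either direction; the number was 2904, 818 and 902 without MHFD replicates 1, 2 and 3, and 875 without MND replicate 1. In bulk tissue, more cells that carry Tfrc and more Tfrc mRNA per cell cannot be told apart.

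**Figure D1:**
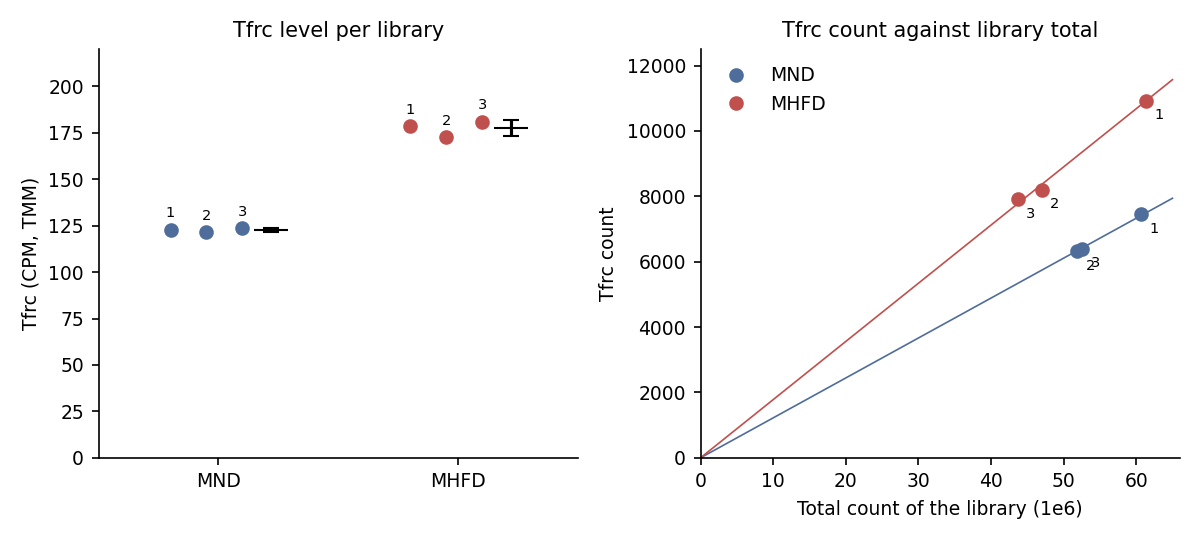
Left, Tfrc in CPM (TMM) in each library, with the replicate number above each point and the group mean and SD (n = 3) beside the points; right, the Tfrc count against the total count of the library in units of 1e+06, with a line for the mean CPM by library size of each group. The MHFD libraries sit between 173 and 181 CPM and the MND libraries between 121 and 124 CPM, and each library lies close to the line of its group at every total.

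The MHFD animals had a mean of 177 ± 4.28 CPM and the MND animals one of 123 ± 1.09 CPM (SD, n = 3 per group). The fitted log2 fold change was 0.53 (standard error 0.08), a 1.45-fold higher level in the MHFD brains. The standard error comes from a model that borrows the spread of other genes; from the spread of Tfrc alone, the difference of mean log2 CPM was 0.53 with a standard error of 0.02. Each of the 9 ratios of an MHFD to an MND library lay between 1.40 and 1.49. With each library left out in turn, the log2 fold change lay between 0.52 and 0.55; Tfrc was chosen on the values of these same libraries, so this range describes the choice and is no support of its own.

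The depth and composition of the libraries are given beside Tfrc, and their part in its difference was not tested. The total counts of MHFD replicate 1 and MND replicate 1, the deepest libraries, differed 1.01-fold and their Tfrc counts 1.47-fold. MHFD replicate 3 was the shallowest library, and its Tfrc count of 7923 was above that of each MND library. The share of the total held by the top 10 genes was 13.7, 17.1 and 18.3% in MHFD replicates 1, 2 and 3. In the MND libraries it was 13.4 to 14.7%. The TMM factors lay between 0.985 and 1.01, so the scaling moved the level little. With the library total alone as the scale, the MHFD animals had 178 ± 3.43 CPM and the MND animals 122 ± 0.602 CPM (SD, n = 3 per group).

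The spread of Tfrc between animals was set beside the error of counting. The coefficient of variation of CPM (TMM) was 2.41% among the MHFD libraries and 0.887% among the MND libraries. If each fragment added 1 count, counting alone would give 1.06% for the MHFD libraries and 1.22% for the MND libraries. A count of 4 was at least 2.19 times as frequent among genes as a count of 3 or 5, on average, in each library. A fragment may thus have added several counts, but this does not tell how many. At 4 counts for each fragment, taken as an example, the counting error would be 2.13% and 2.45%. The MND libraries lay closer together than counting gives on average under either figure. With TMM, the MHFD libraries lay above both of their figures, further from the first than from the second. With the library total alone as the scale, the coefficient of variation was 1.92% for the MHFD and 0.493% for the MND libraries. On that scale the MHFD libraries lay above their first figure and below their second, so the second comparison depends on the scaling. An SD from 3 libraries is itself imprecise.

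Tfrc was set beside the 200 genes nearest to it in mean log2 CPM, with means from 139 to 157 CPM, which have nearly the same counting error. The pooled SD of log2 CPM within groups was 0.026 for Tfrc, against a median of 0.136 over these genes and a range from 0.011 to 1.21. A smaller SD was found for 2 of the 200 genes, and for 27 of all 16776 genes tested. In the MND group alone 2 of the 200 genes had a smaller coefficient of variation, and their median was 7.0%. In the MHFD group 10 did, and the median was 9.62%. These genes had a median log2 fold change of -0.04 and a median absolute value of 0.12.

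Among the 200 genes, 2 had a log2 fold change at least as high as that of Tfrc, and 4 lay as far or further below 0. The groups overlapped for both of the former, whose SD within groups was 0.446 and 0.675, and 1 of the latter was without overlap. The MHFD libraries lay above the MND libraries for 11 of the 200 genes, or 5.50%, and below them for 20, where 6.83% of all genes tested lay below. The largest ratio between the nearest libraries of the groups was 1.17 among these 200 genes, against 1.40 for Tfrc. On the log2 scale, the distance between the groups was 7.09 times the larger of the ranges within a group for Tfrc, and at most 1.13 times for the 200 genes. Of the 2027 genes without overlap, whose mean reached 1 CPM and which had counts in every library, 0 others reached the value of Tfrc; genes with a count of 0 in any library, ENSRNOG00000049814 among them, were left out, as a distance on the log2 scale cannot be given for them. The gene was picked out for its separation, so its place at the end of these orders describes the choice.

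**Figure D2:**
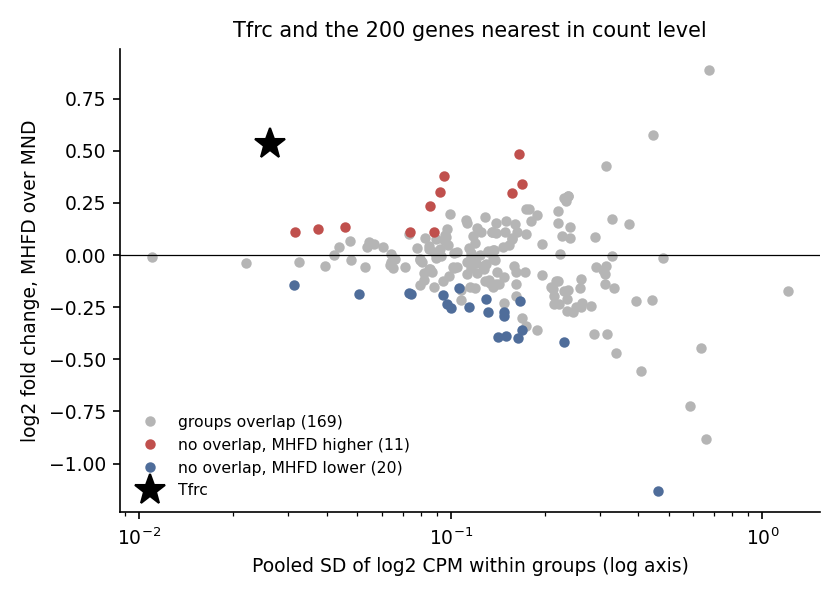
Log2 fold change (MHFD over MND) against the pooled SD of log2 CPM within groups, on a log axis, for Tfrc (star) and the 200 genes nearest in count level, coloured by whether the groups overlap. Tfrc lies at an SD of 0.026 and a log2 fold change of 0.53, apart from the other genes, of which 11 were without overlap and higher, and 20 without overlap and lower, in the MHFD group.

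Counted over the whole table, a difference of this size was found mostly among genes of low count. Among the 200 genes of like level, 2 reached the log2 fold change of Tfrc and 2 had a smaller SD. At that level the size was thus no more common than the evenness. A log2 fold change of at least that of Tfrc was found for 1571 genes, Tfrc included, which is 9.36% of those tested. They were mostly of low count, with a median mean level of 1.60 CPM, and 557 of them were without overlap. Of the 1962 genes averaging 100 CPM or more, 26 reached the log2 fold change of Tfrc, itself included, and 14 of these were without overlap.

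The genes of like level also served as a scale that uses no library total. The ratio of the Tfrc count to that of each of the 200 genes was higher in every MHFD library than in every MND library for 176 of them. Relative to the median of these genes, the log2 level of Tfrc lay between 0.24 and 0.36 in the MHFD libraries and between -0.29 and -0.28 in the MND libraries. The difference on this scale was 0.58, beside 0.53 with TMM. The scale was chosen after the data were seen. Tfrc was chosen on the values of these same libraries, so the 176 and the 0.58 describe the choice and are no support of their own.

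**Figure D3:**
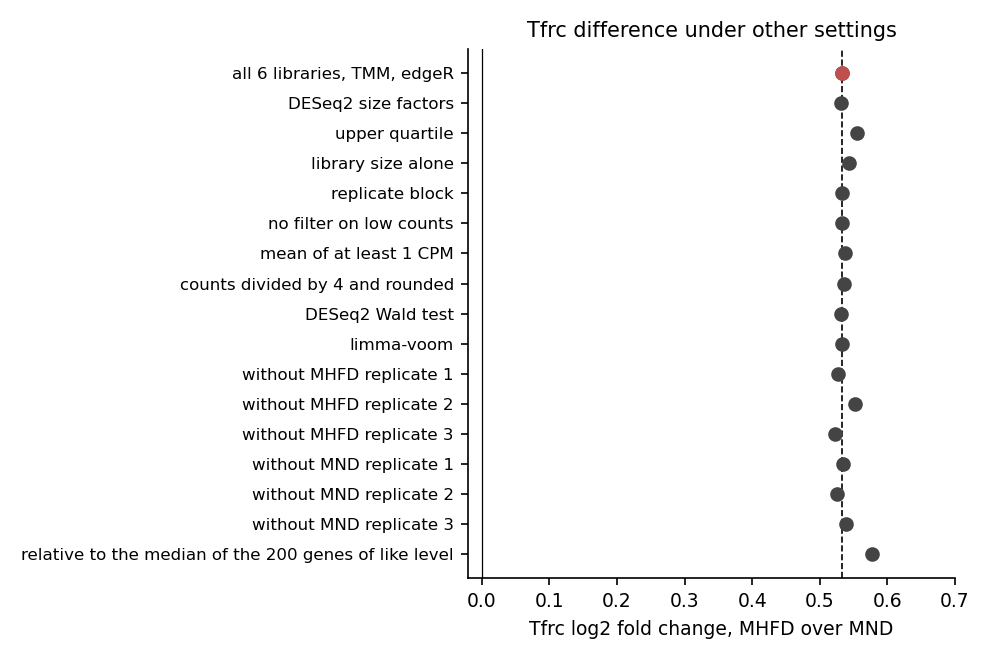
Log2 fold change of Tfrc (MHFD over MND) under each normalization, filter, test and left-out library; the dashed line marks the value from all 6 libraries and the solid line marks 0. The points lie between 0.52 and 0.58.

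Patterns like that of Tfrc were looked for with Pearson's correlation of log2 CPM over the 6 libraries, among 14497 other genes that averaged 1 CPM or more. As the Tfrc values form a high and a low cluster, the correlation mostly states how cleanly another gene parts the same groups, and it is given as a description over libraries that all the genes share. A correlation of at least 0.95 was found for 39 genes, or 0.269%, and one of -0.95 or lower for 31 genes. The number 39 was not stable: with a library left out it was 397, 89 and 82 without MHFD replicates 1, 2 and 3 and 103, 152 and 154 without MND replicates 1, 2 and 3, and it was 22 with Spearman's correlation. All 39 were without overlap, and 16 of them had a log2 fold change at least as high as that of Tfrc. Their median log2 fold change was 0.44, and 5 of them had a smaller SD within groups than Tfrc. For the 31 genes of opposite pattern, the log2 fold change lay between -1.92 and -0.11.

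The highest Pearson correlation was that of ENSRNOG00000049814 (r = 0.999), with 58.5, 41.6 and 72.7 CPM for MHFD replicates 1, 2 and 3 and 0 in each MND library. It passed the minimum of 1 CPM through the MHFD group alone, and its log2 values in the MND libraries are set by the prior count, so the r mostly restates that it is at 0 in one group. Spearman's rho is not given for this gene, since its MND libraries all hold a count of 0 and have no order among them. Its level was at least 1048-fold higher in the MHFD group against a floor of 3 counts in each MND library, so it shared the split and the order of the MHFD libraries with Tfrc but not the size. ENSRNOG00000019737 came next (r = 0.996) and was close to Tfrc in size too, with a log2 fold change of 0.42 (standard error 0.08). It had 53.7, 51.2 and 55.2 CPM in the MHFD libraries and 40.0, 39.8 and 39.6 CPM in the MND libraries. Like Tfrc, both genes were lowest in MHFD replicate 2 and highest in MHFD replicate 3 within their group. In the MND group, Tfrc was highest in replicate 3, where ENSRNOG00000019737 was lowest. The split and the MHFD order helped set the correlation by which both genes were taken, so sharing them is no separate result.

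The gene least like Tfrc was ENSRNOG00000047247 (r = -0.98), with 469, 454 and 462 CPM in MHFD replicates 1, 2 and 3 and 550.3, 573 and 557 CPM in the MND libraries. Its log2 fold change was -0.28 (standard error 0.08), and its groups were as narrow as those of Tfrc, with an SD of 0.027. ENSRNOG00000021130 (r = -0.98) had 35.0, 32.3 and 28.0 CPM in the MHFD libraries and 56.6, 59.8 and 56.4 CPM in the MND libraries, a log2 fold change of -0.86 (standard error 0.11). These genes are named by identifier, since no symbol could be paired with them.

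**Figure D4:**
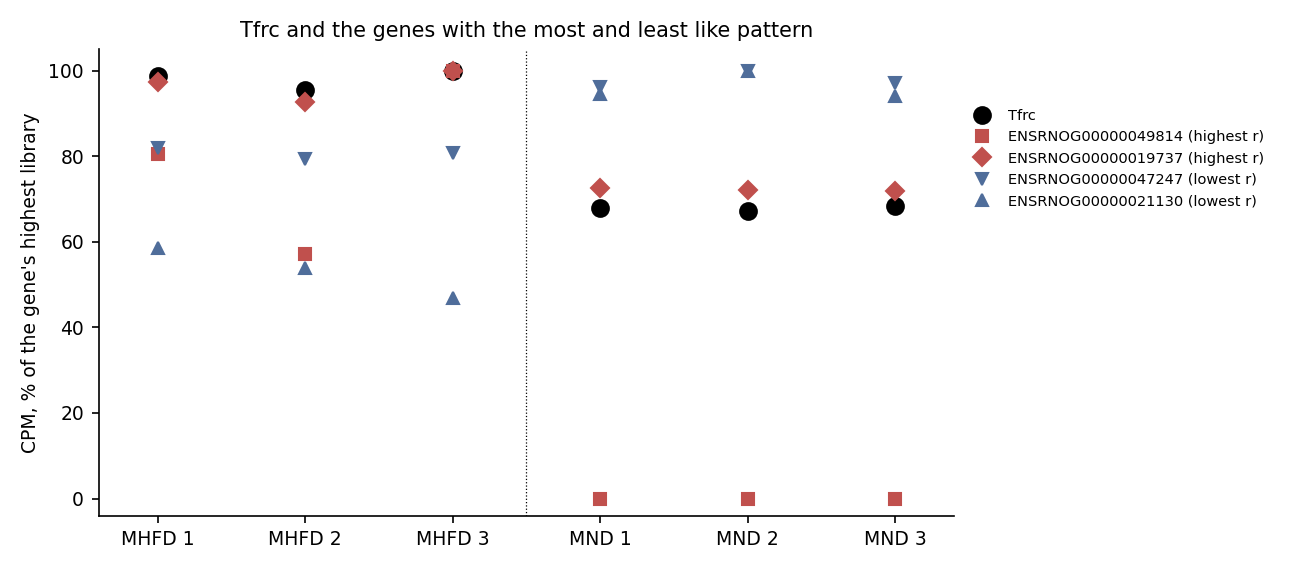
CPM (TMM) as a percent of each gene's highest library, in the 3 MHFD and 3 MND libraries, for Tfrc (black), the 2 genes with the highest (red) and the 2 with the lowest correlation (blue) with Tfrc. Tfrc and ENSRNOG00000019737 follow the same order in the MHFD libraries and differ in order in the MND libraries. ENSRNOG00000049814 is at 0 in the MND libraries, and the blue points are lower in the MHFD libraries.

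With the group means taken out, what was left of the pattern of Tfrc was small, with a pooled SD of log2 CPM of 0.026. Of the 39 genes of like pattern, 29 had deviations that went the same way as those of Tfrc, judged by a positive correlation over the 6 libraries, and 1 reached 0.95. Over all 14497 genes 50.6% had a positive value. The correlation of the deviations helped set the correlation by which the 39 genes were taken, so the higher share is no separate result.

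No rat sequence of Tfrc is shown and the other genes of iron handling, such as transferrin, the ferritins, ferroportin and the iron regulatory proteins, are not analysed here, as their identifiers could not be paired with names.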

How the data were processed

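Total RNA of brain tissue from 6 animals was extracted with TRIzol and sequenced by a service company, per the labels and the study's methods. The authors deposited whole counts per gene, without normalization; the submitters' processing notes name Bowtie and mm10 with no role given, which does not match the rat identifiers, and the counting program and annotation release are not given in the sources used here. All 6 columns were matched to samples by name. Groups and replicate numbers came from the sample titles. The smallest chi-square per gene between libraries of a group was 26.8, so none was a copy of another.

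Counts were filtered with filterByExpr (minimum count 10, minimum total 15), normalized by TMM and fitted with the quasi-likelihood model of edgeR 4.0.16 in R 4.3.3 over 16776 genes, with group as the only term. The standard error of a log2 fold change is its size over the root of the F statistic. Log2 CPM used a prior count of 2. Alternatives used DESeq2 1.42.0 and limma 3.58.1. The programs were tested on simulated data.

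The gene, the tests and the lists were chosen with earlier results of these data known. Named genes are Tfrc and, among genes that averaged 1 CPM or more, the 2 with the highest and the 2 with the lowest Pearson correlation with it. The lists planned on symbols (iron handling, hypoxia, proliferation and cell type markers) were not run.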

Additional observations from a re-analysis of the deposited data

How the results depend on the processing

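The log2 fold change of Tfrc, 0.53, stayed within 1 SD (0.026) under the other normalizations, filters, tests and left-out libraries, from 0.52 to 0.56; relative to the median of the 200 genes of like level, a scale chosen after seeing the data, it was 0.58, as that median was lower in the MHFD group. The median of all genes moved from 0.00 to 0.02 over the normalizations. Libraries of the same replicate number were not alike in their deviations from the group means. The correlations were -0.09, 0.00 and -0.14, and 0 of 3 MHFD libraries were closest to their own number. This does not exclude a pairing, which the sources used here do not state. The fit with the replicate block gave 0.53 for Tfrc. It called 1078 genes at an unadjusted p under 0.05, against 1456 without the block (edgeR, 8.68% of those tested).

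The share of like-level genes with a smaller spread than Tfrc was 1% and lay from 0.5 to 2% in the alternatives with all libraries. It was 4.5% without MHFD replicate 1, 0% without MHFD replicate 2, 1.5% without MHFD replicate 3 and from 1.5 to 2% without each MND library. Leaving out a library moved the count at that threshold to between 818 and 2904 genes, with 2904 without MHFD replicate 1, 818 and 902 without MHFD replicates 2 and 3, and 875 without MND replicate 1. The number of genes with a pattern like Tfrc, 39, was 22 with Spearman's correlation. It was 397, 89 and 82 without MHFD replicates 1, 2 and 3, and 103, 152 and 154 without MND replicates 1, 2 and 3; the cause was not tested. The comparisons planned on gene symbols and their alternatives were not run. The counting errors given for Tfrc depend on the number of counts for each fragment, which is not known. Having 3 animals in a group limits what its spread can show.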
